A study of Mus musculus with 20 samples.

Results

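The cells described here are the 58 cells of 1367 whose supervised annotation in the authors' table of cells reads prePC.Mem, a label that places them before the plasma cell stage with a memory-like identity. They were taken by that label and by plate, with plate 6 left out. That plate held 10 cells, 5 of them prePC.Mem, and 5979 counts in all. The study index-sorted single eYFP+ B cells and plasma cells from lymph nodes of C57BL/6 mice. These had been immunised 15 days earlier with NP-KLH (the hapten NP coupled to a carrier protein) in Sigma Adjuvant System. Both groups shared this immunisation and had received tamoxifen 4 days before collection. The 20 plates carry the sampleIDs C57BL/6F and C57BL/6M, with 10 plates each. The sources used here do not give the promoter that drives the eYFP label or the number of mice, and sampleID, sex and animal cannot be told apart. Therefore p-values measure the spread between plates, which may be technical.

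Plasma cells are the antibody-secreting end stage of the B cell lineage, and in an immunised lymph node some of them arise from germinal centres, where B cells divide and mutate their receptors. A cell on the way to this stage turns on Xbp1, the transcription factor that builds up the secretory pathway, fills its cytoplasm with immunoglobulin transcripts, and gives up MHC class II presentation and the germinal centre programme. A memory B cell instead rests, keeps MHC class II, and carries surface receptors such as CD38 and CCR6.

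C57BL/6F held 24 of the 58 cells and C57BL/6M 34, spread over 16 of the 19 plates kept. Plate 4 held 10 and plate 13 held 9. The sort gates, set by surface fluorescence, placed 30 of them in the plasma cell gate (PC), 25 in the pre-plasma gate (PrePC), 2 in the light zone gate and 1 in the dark zone gate. They were compared with 480 cells annotated as plasma state, 29 as activated pre-plasma state (all in the PrePC gate), 773 as dark zone, light zone or light-to-dark germinal centre states, and 17 as pre-memory. No cell name was shared between libraries. In the authors' clustering 40 of the 58 fell in cluster 7, which also held 61 plasma state cells among its 104, and the others were spread over the other 6 clusters that held any. If the authors annotated the cells from the same transcripts, differences between states describe the annotation.

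The plates kept held 3208858 to 11908095 counts each. The prePC.Mem cells were shallow, with a median of 17553 counts per cell (492 to 113167) against 70190 in plasma state cells and 229914 in activated cells. All levels below are therefore counts per cell after 5000 counts were drawn at random from each cell, and cells with fewer were left out. This kept 48 of the 58 cells (82.8%), 24 in the PC gate and 21 in the PrePC gate, and 478 of the 480 plasma state cells.

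At equal counts the prePC.Mem cells carried far fewer different transcripts than plasma state cells of the same gate. In the PC gate their median was 242 genes (158 to 1029, 24 cells) against 1053 (241 to 2303, 349 cells). Those of the PrePC gate had 689 genes (242 to 1708, 21 cells) against 1286 (281 to 2451, 128 cells). Over plates with at least 2 cells, the PC gate means ran from 160.5 to 288.5 genes in 8 prePC.Mem pools and from 522.8 to 1363 in 19 plasma state pools, so those groups did not overlap. The lone PC gate prePC.Mem cell of plate 9, left out of these pools, had 1029 genes, inside the plasma state range. PrePC gate means ran from 260 to 1412 and from 492.8 to 1787, and did overlap.

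Within plates that held at least 1 cell of each state, the difference was −506 ± 158 genes (SD over 9 plates) in the PC gate, lower on 9 of 9 plates. An exact two-sided sign-flip permutation test over the 9 plates gave p = 0.0039, the smallest it can give, and 0.0039 after Benjamini-Hochberg adjustment over both gates. For the PrePC gate it was −444 ± 334 genes (SD over 11 plates), lower on 11 of 11 plates, with an adjusted p of 0.00195 by the same exact permutation test. The size of the difference was not shown to differ between gates (difference of 192 ± 301 genes, SD over 6 plates with both, exact permutation p = 0.219). With C57BL/6F alone, which left few plates, the differences were −343 and −304 genes and the adjusted p was 0.25 in each.

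**Figure D1:**
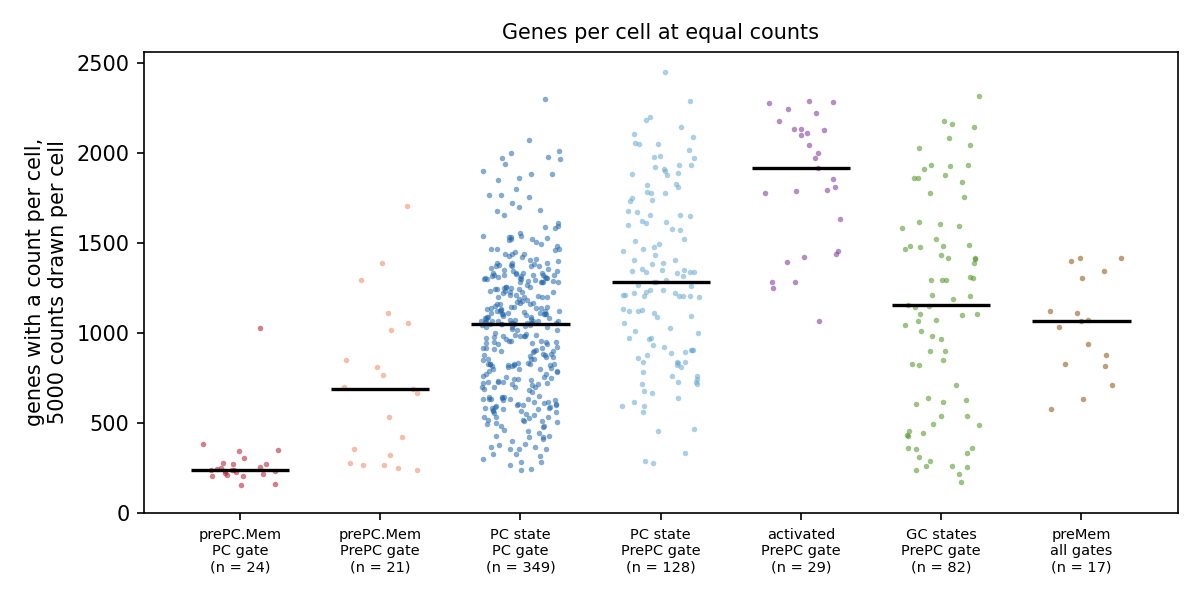
Genes with at least 1 count per cell (y axis) after 5000 counts were drawn per cell, for each annotated state and sort gate (x axis); points are cells and bars are medians. The 24 prePC.Mem cells of the PC gate lie at 158 to 384 genes apart from 1 cell at 1029, below the plasma state median of 1053.

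In all, 23 of 24 prePC.Mem cells of the PC gate (95.8%) and 8 of 21 of the PrePC gate (38.1%) had under 500 genes, against 29 of 349 (8.31%) and 5 of 128 (3.91%) plasma state cells. Spike-in RNA made up a median of 5.59% of counts in the PC gate and 3.53% in the PrePC gate, against 3.52% and 2.27% in plasma state cells. The accuracy of the spike-in measurement, a correlation per cell, had a median of 0.787 in prePC.Mem and 0.871 in plasma state cells. The share of mitochondrial transcripts was 2.25% against 1.09%. The part of these quality values in the differences below was not tested apart from the comparison of cells with few genes, where gene numbers still differed.

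The 4 genes given as marks of the prePC.Mem cells did not behave as one set. Jchain, the joining chain of polymeric IgM and IgA (chromosome 5, 88519809 to 88527891, minus strand, GENCODE M21 on GRCm38), had a count in 48 of 48 cells. Plate means given here and below are over plates with at least 2 such cells in the gate, and plates with 1 cell are named apart. The mean of Jchain per plate in the PC gate was 256 ± 93.3 counts (SD, n = 8 plates, 97.0 to 386) against 79.1 ± 20.7 in plasma state cells (n = 19 plates, 35.8 to 124). In the PrePC gate it was 67.6 ± 43.5 (n = 7 plates, 15.5 to 128) against 46.7 ± 16.8 (n = 19 plates, 20 to 89.6). Of these 8 PC gate plates, plate 16, at 97.0, lay within the plasma state range and the others above it, but the lone PC gate cell of plate 9 had 3 Jchain counts, below every plasma state plate mean. The 4 lone PrePC gate cells, on plates 12, 13, 17 and 20, had 63 to 157. Of the 7 PrePC gate plates 3 lay above, 3 within and 1 below the plasma state range.

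Ighm, the IgM heavy chain constant gene (chromosome 12, 113418558 to 113422730, minus strand), was most frequent in the PrePC gate. It had a count in 15 of 21 prePC.Mem cells there and averaged 45.7 counts per cell, against 13.1 in plasma state and 2.38 in activated cells of the same gate. Plate means ran from 1.67 to 79.0 (median 19, 7 plates), and the 4 lone cells had 57 to 157. In the PC gate 9 of 24 cells had a count and the plate median was 0.25 (8 plates). Plates 4 and 13 averaged 49.1 and 37.7 Ighm counts there, and the other 6 at most 5.5, while the lone cell of plate 9 had 6.

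Apoe, an apolipoprotein of lipid transport (chromosome 7, 19696109 to 19699188, minus strand), had a count in 11 of 21 cells of the PrePC gate (52.4%, exact 95% interval 29.8% to 74.3%) and in 3 of 24 of the PC gate (12.5%, 2.66% to 32.4%). Plasma state cells showed the same split by gate, with Apoe in 69 of 128 (53.9%) and 19 of 349 (5.44%). No activated cell had an Apoe count (0 of 29, which allows up to 10.3% of cells with a count at this depth), while 12 of 17 pre-memory cells did (70.6%). Exact intervals are by the Clopper-Pearson method, and the share that 0 cells allow is 3 cells of the total. Both cover counting error only, and the latter limits cells with a count among 5000, not cells that express the gene.

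Prg2, a granule protein best known from eosinophils (chromosome 2, 84980461 to 84983632, plus strand), had a count in 3 of 24 PC gate and 4 of 21 PrePC gate prePC.Mem cells, a smaller share than in plasma state cells (131 of 349 and 53 of 128). Plate 2 averaged 42.0 Prg2 counts over its 3 PrePC gate cells, and the lone PrePC gate cells of plates 13 and 20 had 30 and 35. The other 6 plates with at least 2 PrePC gate cells and the lone cells of plates 12 and 17 had 0. Defining genes of macrophages were at 0: of 15 macrophage and monocyte genes in the matrix, 11 had no count in the 48 cells, C1qa, C1qb, C1qc, Csf1r and Fcgr1 among them. The summed level of that list had a median of 0 (0 to 27), most of it from the protease gene Ctsb, with a count in 17 cells. Epx and Prg3, eosinophil granule genes like Prg2, had no count in the 48 cells, and none of the 10 listed granulocyte and mast cell genes was in the matrix. Of 13 T and NK cell genes 10 were at 0, and 1 cell of the PC gate held 36 counts of the others, Cd8a among them. All 10 red cell and stromal genes and 7 of 10 dendritic cell genes were at 0.

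**Figure D2:**
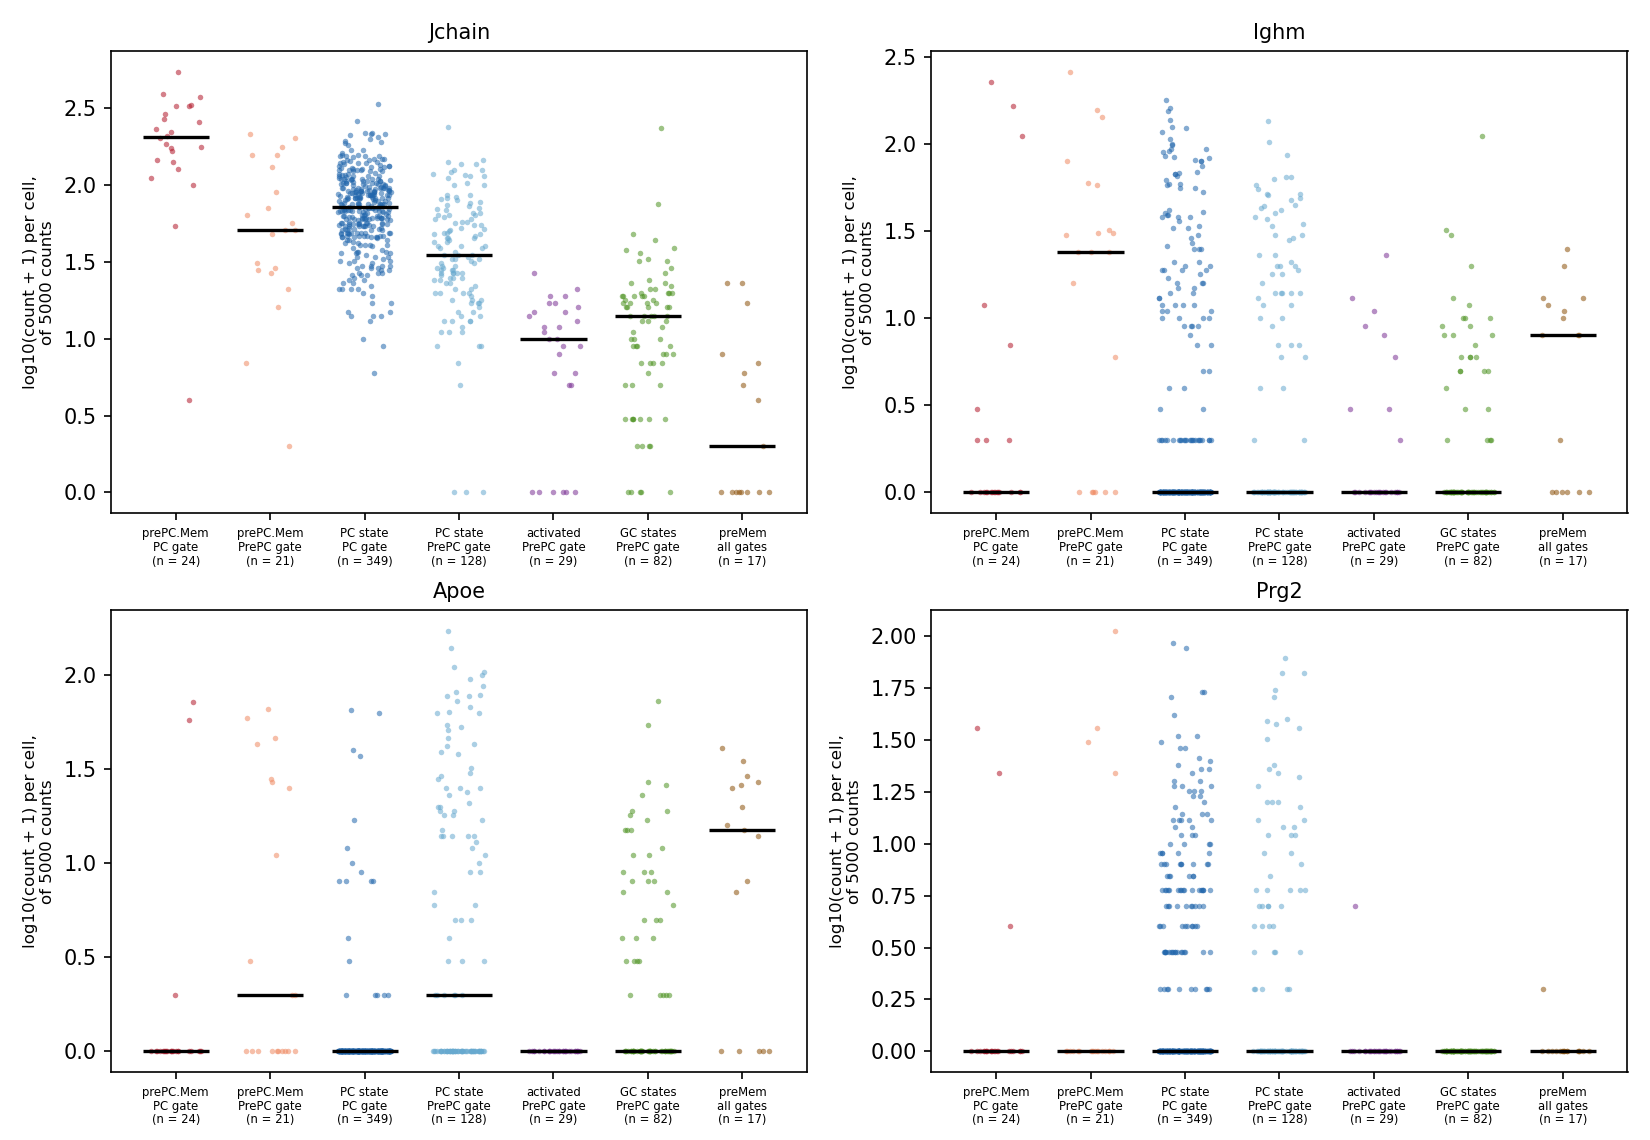
Jchain, Ighm, Apoe and Prg2 per cell, as log10(count + 1) of 5000 counts (y axis), by annotated state and sort gate (x axis); points are cells and bars are medians. Jchain is highest in the prePC.Mem cells of the PC gate, the median of Ighm is above 0 in those of the PrePC gate, and Prg2 is at 0 in most prePC.Mem cells.

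Few transcripts of memory B cell genes were found in cells whose label names memory. Of 19 naive and memory B cell genes in the matrix, 8 had no count in any of the 48 prePC.Mem cells, among them the chemokine receptors Ccr7 and Ccr6, the survival gene Bcl2 and the IgD constant gene Ighd. For each, 0 of 48 allows up to 6.25% of cells with a count at this depth. The summed level of the list had a median of 0 in both gates (3 of 24 and 7 of 21 cells above 0, highest 28) and of 13 in the 17 pre-memory cells, all of which were above 0. Plasma state cells were low as well: their medians were 0 in the PC gate (147 of 349 cells above 0) and 2 in the PrePC gate (82 of 128), and their mean sums, 1.59 and 2.95, were below the 1.88 and 3.86 of prePC.Mem cells. Fcer2a, the low-affinity IgE receptor CD23, had a count in 2 of 48 prePC.Mem and 14 of 17 pre-memory cells. Cd38 had one in 4 of 48 and 5 of 17. None of the listed genes passed the filter on low counts in the edgeR comparisons below, so none was tested. These cells also had the fewest genes at equal counts, and the part of this in the missing memory genes was not tested. The authors' own memory score had a median of 0.249 in the 58 prePC.Mem cells, below that of plasma state cells (0.387) and of pre-memory cells (0.723). Of the 22 listed plasma cell genes 1 had no count in the 48 cells, and 4 had none in the 24 PC gate cells. Mzb1, a chaperone of antibody assembly, had a count in 44 of 48 cells, and Xbp1 in 34 of 48. Other members were sparse: of the 15 prePC.Mem pools compared below, Sdc1 and Derl3 had counts in 5 and Tmem154 in 4. The name prePC.Mem is kept below as the annotation gives it.

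**Figure D3:**
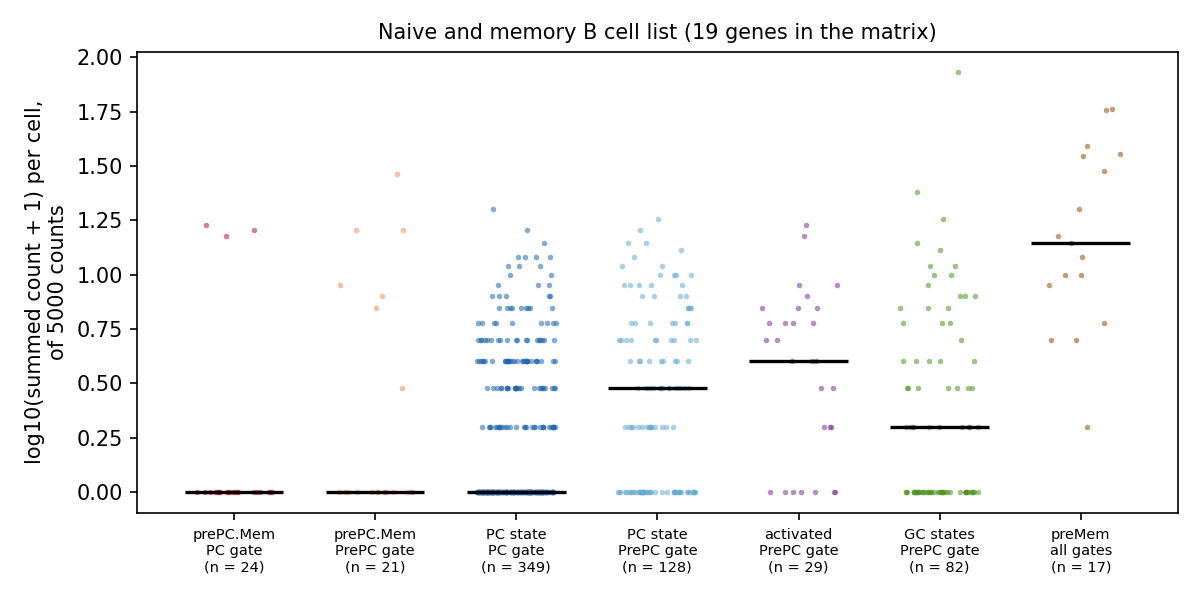
Summed counts of the 19 naive and memory B cell genes per cell, as log10(sum + 1) of 5000 counts (y axis), by annotated state and sort gate (x axis); points are cells and bars are medians. The median is 0 in prePC.Mem cells of both gates and 13 counts in the pre-memory cells.

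Immunoglobulin transcripts took a larger median share of counts in prePC.Mem than in plasma state cells of the same gate, a difference that was not tested. In the PC gate they made up a median of 25.2% of their counts (7.6% to 38.3%, 24 cells) against 8.44% (1.56% to 29.9%, 349 cells) in plasma state cells. Among PrePC gate cells the share was 7.14% (2.46% to 27.7%, 21 cells) against 4.56% (0.74% to 16.1%, 128 cells), and it was 1.62% in activated cells. Plate means in the PC gate ran from 12.9% to 29.9% in prePC.Mem and from 5.30% to 13.9% in plasma state cells, with 1 of these 8 prePC.Mem plates inside the plasma state range. The lone PC gate cell of plate 9, at 7.6%, lay inside it as well. Plate means in the PrePC gate ran from 4.08% to 12.4% in prePC.Mem and from 2.99% to 8.94% in plasma state cells, and overlapped. The lone PrePC gate cells had 6.76% to 20.1%.

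The averages of the constant regions over cells are given by gate as a description, since 0 of 6 tested passed between the gates. In the PC gate Ighg1 averaged 77.5 counts per cell, Iglc1 (the lambda-1 light chain, which NP-binding antibodies of this strain often use) 102.9 and Igkc 142.2. Averages in the PrePC gate were 7.90, 13.4 and 70.3, and Ighm led the heavy chains. By the heavy chain constant gene with the most deposited counts, 24 of 30 PC gate cells (80%, exact 95% interval 61.4% to 92.3%) were of an IgG class and 5 were IgM. Of 25 PrePC gate cells, 9 (36.0%, 18.0% to 57.5%) were IgG and 15 IgM. Plasma state cells were IgG in 294 of 351 (83.8%) and 87 of 128 (68.0%). Near-identical constant genes such as Iglc1 to Iglc3 and Ighg2b and Ighg2c may exchange reads in the counting.

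For MHC class II genes the shares had the reverse order, though 0 of 3 tested passed between the gates. Their 12 listed members, with the invariant chain Cd74, made up a median of 0.42% of counts in the PC gate (0% to 6.16%) and 2.26% in the PrePC gate (0.16% to 4.62%). Plasma state cells of the same gates had 1.16% and 1.95%. H2-Aa, the class II alpha chain, had a count in 4 of 24 and 18 of 21 prePC.Mem cells.

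**Figure D4:**
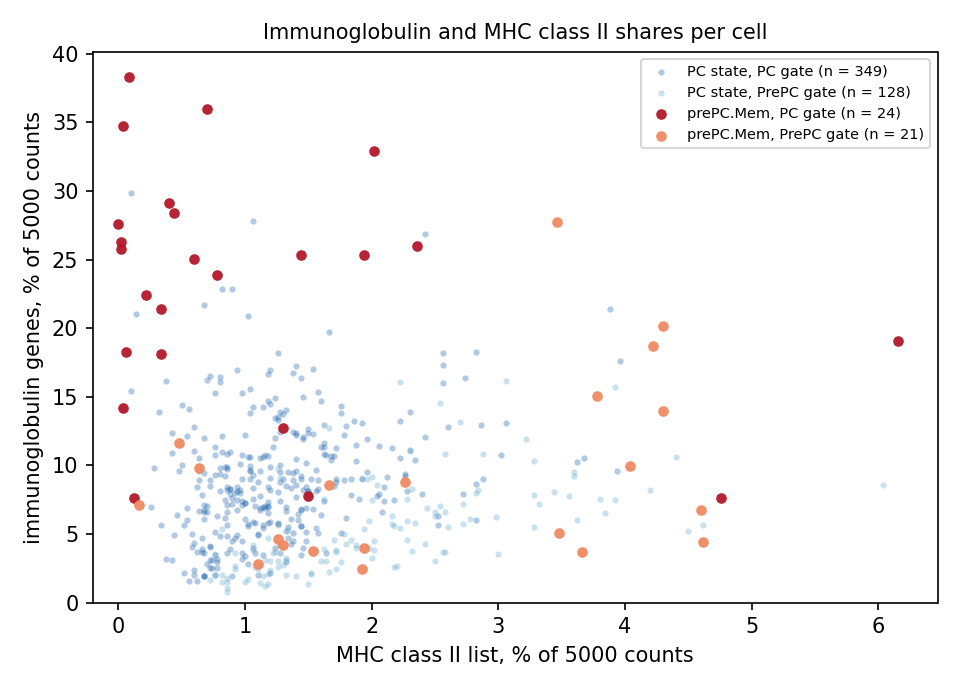
Share of immunoglobulin genes (y axis) against share of the 12 MHC class II genes (x axis), both in percent of 5000 counts, for prePC.Mem and plasma state cells by gate; points are cells. Most prePC.Mem cells of the PC gate lie high on the left, with medians of 25.2% and 0.42%, and those of the PrePC gate lower and further right, with medians of 7.14% and 2.26%.

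The question of what sets prePC.Mem cells apart from plasma state cells was put to counts summed per plate, gate and state, with the plate and the gate in the model (edgeR quasi-likelihood test, 15 prePC.Mem pools of 40 cells and 38 plasma state pools of 477 cells). Of 861 genes tested, 536 were lower in prePC.Mem cells at an adjusted p under 0.05 (62.3%) and 1 was higher (0.116%), with a median log2 change of −1.62. List counts are read against that share. It depends on the fit: 335 of the 861 genes were lower with library size alone and 403 with the sampleID in place of the plate.

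Of the plasma cell identity genes, 12 of 15 tested were lower and 0 higher (median log2 change −1.96 against −1.62 over all genes). Xbp1 changed by −1.50 ± 0.40 (SE, log2; edgeR adjusted p = 0.0016), and Sdc1, the plasma cell marker CD138, by −2.92 ± 0.81 (adjusted p = 0.0021); these 2 genes were named after their values were seen. Derl3, which helps clear misfolded proteins from the endoplasmic reticulum, changed by −3.50 ± 0.68 (edgeR adjusted p = 4.95e-05). Mzb1 changed by −0.85 ± 0.22, less than the median gene (edgeR adjusted p = 0.00104), and Tmem154, a membrane protein, by −3.0 ± 0.71.

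Among genes for protein folding and secretion, 23 of 30 tested were lower and 0 higher (median −1.75). The disulfide isomerases Pdia3, Pdia4 and P4hb changed by −2.64 ± 0.51, −2.71 ± 0.52 and −3.31 ± 0.65, and the prolyl isomerase Ppib by −2.46 ± 0.47 (SE, log2). In thinned counts Pdia3, Pdia4 and P4hb added up to 212, 173 and 28 counts in 40 prePC.Mem cells and 7529, 6658 and 1946 in 477 plasma state cells.

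Genes with no count in the 40 prePC.Mem cells were Tmem214, Kdelr2, Anxa7 and Tmem176a. Set at a floor of 3 counts over the group, Tmem214 would be 20.5-fold lower and Kdelr2, a receptor that returns proteins to the endoplasmic reticulum, 18.1-fold lower. The values for Tmem176a and Anxa7 at that floor were 17.4-fold and 17.1-fold. These folds treat counts as independent and leave plate and gate aside. Counts were clumped, with a median over prePC.Mem cells of 44.4 deposited counts per detected gene, so the folds are not strict lower bounds. Enpp1, an ectonucleotidase, changed by −5.92 ± 0.79 with 1 count in prePC.Mem cells against 735. Rabac1, Clpp and Idh3g changed by −5.01, −5.07 and −5.02.

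Antigen presentation and B cell genes were called lower about as often as all genes. Of 8 MHC class II genes tested 6 were lower (median −1.45, less negative than the −1.62 over all genes), with Cd74 at −0.94 ± 0.29, H2-Ab1 at −1.42 ± 0.46, H2-DMa at −1.82 ± 0.66 and H2-Eb1 at −1.87 ± 0.58. Of 7 B cell receptor and identity genes 5 were lower (median −1.68), among them Cd79a (−1.68 ± 0.49), Ms4a1, which encodes CD20 (−2.64 ± 0.65), and the adaptor Blnk (−1.78 ± 0.62). Ly6a, the surface protein Sca-1, changed by −2.12 ± 0.56. Of 21 cytosolic ribosomal protein genes 12 were lower (median −1.20), with Rplp0 at −1.73 ± 0.49 and Rpl4 at −1.37 ± 0.49. Mean list sums of thinned counts per cell were not lower in both gates. For ribosomal protein genes they were 89.5 against 113 in plasma state cells (PC gate) and 169 against 143 (PrePC gate). For MHC class II genes they were 53.5 against 63.2 and 130 against 104. For B cell receptor and identity genes they were 41.2 against 41.6 and 60.2 against 60.0.

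The gene called higher was mt-Cytb, a mitochondrial subunit of respiratory complex III, at 0.64 ± 0.22 (SE, log2; edgeR adjusted p = 0.0098), though at −0.037 in the PC gate fitted alone, and 0 of the other 4 mitochondrial genes tested was called. Of 9 immunoglobulin constant genes 2 were called lower in the model, Ighg2c (−3.62 ± 0.79) and Ighg2b (−1.63 ± 0.70), and 0 were higher. In thinned counts Ighg2c and Ighg2b added up to 574 and 655 in 40 prePC.Mem cells. They added up to 6155 and 4571 in 477 plasma state cells, so their average per cell was not lower in prePC.Mem cells. Jchain changed by 0.38 ± 0.18 (edgeR adjusted p = 0.066), Ighm by −0.32 ± 0.67 (adjusted p = 0.67, and −5.09 with adjusted p = 0.003 in the PC gate alone) and Apoe by −0.90 ± 0.80 (adjusted p = 0.31). Prg2 changed by −3.80 ± 0.95 (edgeR adjusted p = 0.0008). With pools scaled by library size alone, which moved the median of all genes by 0.50, Jchain was higher by 1.01 (edgeR adjusted p = 8.25e-05). Jchain was called in 7 of 18 alternatives, DESeq2 and a second draw of counts among them, and was below 0 in 2.

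The gates gave different numbers of calls. Fitted alone, the PC gate gave 1322 lower and 0 higher genes of 1619 tested, and the PrePC gate 4 lower and 0 higher of 841. The median log2 change over the genes tested was −4.64 in the PC gate and −0.96 in the PrePC gate. A test of the interaction of state and gate called 239 of 861 genes (27.8%), of which 232 had the less negative or higher change in the PrePC gate.

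When only cells with under 500 genes were compared, no gene was called. This comparison set 27 prePC.Mem cells in 10 pools beside 29 plasma state cells in 9 pools, and of 114 genes tested edgeR called 0 (0%), with 9 at an unadjusted p under 0.05 and a median log2 change of −0.43. Jchain was at 0.68 ± 0.32 (edgeR adjusted p = 0.55), Pdia3 at −3.70 ± 1.29 (adjusted p = 0.30), Xbp1 at −1.27 ± 0.80 (adjusted p = 0.71) and mt-Cytb at 0.60 ± 0.31 (adjusted p = 0.63). In such cells of the PC gate, Jchain averaged 232.7 counts in 23 prePC.Mem and 153.2 in 29 plasma state cells, Xbp1 7.35 and 14.7, and Pdia3 2.91 and 13.4. The median share of immunoglobulin genes was 25.3% against 16.4%. These PC gate cells still differed in gene number at equal counts, with medians of 242 in prePC.Mem and 376 in plasma state cells. Their deposited counts had medians of 16094 and 27214. The part of this in the values above was not tested. The comparison was added after the gene numbers had been seen, used the sampleID in place of the plate although 7 plates held both states, and has few cells, so differences of this size could go uncalled. With the plate in the model (8 residual degrees of freedom) edgeR again called 0 of 114 genes, with 14 at an unadjusted p under 0.05 and a median of −0.81, and Jchain was at 0.59 ± 0.32 (edgeR adjusted p = 0.40) and Pdia3 at −4.69 ± 1.84 (adjusted p = 0.29).

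Against the activated pre-plasma state, prePC.Mem cells carried more antibody transcripts. Both states were taken from the PrePC gate (7 pools of 17 prePC.Mem cells, 10 pools of 25 activated cells, sampleID as covariate). Of 178 genes tested, edgeR called 14 higher (7.87%) and 2 lower (1.12%), with a median log2 change of −0.06. Ighm was higher by 3.61 ± 0.74 (SE, log2), Iglc2 by 2.49 ± 0.61, Jchain by 2.45 ± 0.33 and Igkc by 2.22 ± 0.24. In plate means Jchain ran from 15.5 to 128 counts in prePC.Mem and from 3.33 to 21 in activated cells, so the groups overlapped by 1 plate of low Jchain among the prePC.Mem pools.

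The B cell receptor subunit Cd79a (1.44 ± 0.44) and Cd74 (1.36 ± 0.32) were higher too. So were mt-Cytb (1.80 ± 0.31), mt-Co1 (1.77 ± 0.31), the nuclear RNA Malat1 (1.62 ± 0.36) and the coactivator Sub1 (1.56 ± 0.31). Lower were Eif5a, a translation factor (−1.10 ± 0.30), and Gnb2l1, a ribosomal scaffold protein (−2.05 ± 0.59). Of the lists, 3 of 4 constant regions, 1 of 6 plasma cell genes (Jchain), 1 of 4 MHC class II genes and 2 of 3 mitochondrial genes were higher, and 0 of 12 folding and secretion genes, 0 of 16 ribosomal protein genes and 0 of 3 activation and Myc target genes were called. Xbp1 was at 1.26 ± 0.46 (edgeR adjusted p = 0.089) and Mzb1 at 0.77 ± 0.25 (adjusted p = 0.054). Activated cells had a median of 1917 genes at 5000 counts against 689 in prePC.Mem cells of this gate, and the part of that difference in the calls was not tested. Ighm was called in 10 of the 10 alternative fits that tested it, and Jchain in 12 of 13. The call on Eif5a and on Gnb2l1 was kept in 5 of 12 and 5 of 11. C57BL/6F alone gave 0 calls, and without plate 4 there were 18 higher and 7 lower genes.

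Against germinal centre states in the same PrePC gate, few genes were called, Xbp1 and light chain constant genes among the higher and Gcsam among the lower (7 pools of 17 cells against 17 pools of 80 cells, plate as block, 6 residual degrees of freedom). Of 367 genes tested, edgeR called 5 higher (1.36%) and 5 lower (1.36%), with a median of −0.60. Higher were Xbp1 (4.83 ± 1.09, SE, log2), Sub1 (4.04 ± 0.80), the signal peptidase subunit Sec11c (3.19 ± 0.77), Iglc2 (3.0 ± 0.69) and Igkc (2.07 ± 0.57). Among the lower genes were Gcsam, a germinal centre signalling protein (−5.03 ± 1.38), Anxa2 (−4.48 ± 1.24), the histone H2afv (−3.12 ± 0.87) and Pold4, a DNA polymerase delta subunit with 1 count in prePC.Mem cells against 248.

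Xbp1 had a count in 18 of 21 prePC.Mem cells of the PrePC gate (85.7%) and in 32 of 82 germinal centre state cells (39.0%). Of the lists, 2 of 4 germinal centre genes tested were lower (median −4.01), 1 of 5 plasma cell genes (Xbp1), 1 of 10 folding and secretion genes and 2 of 6 constant regions were higher, and 0 of 8 MHC class II genes was called. Jchain was at 1.65 ± 0.52 (edgeR adjusted p = 0.089), Ighm at 2.68 ± 0.82 (adjusted p = 0.077) and Ms4a1 at −3.52 ± 1.04 (adjusted p = 0.063). The number of calls was unstable: another random draw of the 5000 counts gave 2 higher and 0 lower genes. Sub1 was called in 12 of 13 alternatives, Xbp1 in 8 of 13 and Gcsam in 8 of 12, with the direction of all 3 kept in each.

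**Figure D5:**
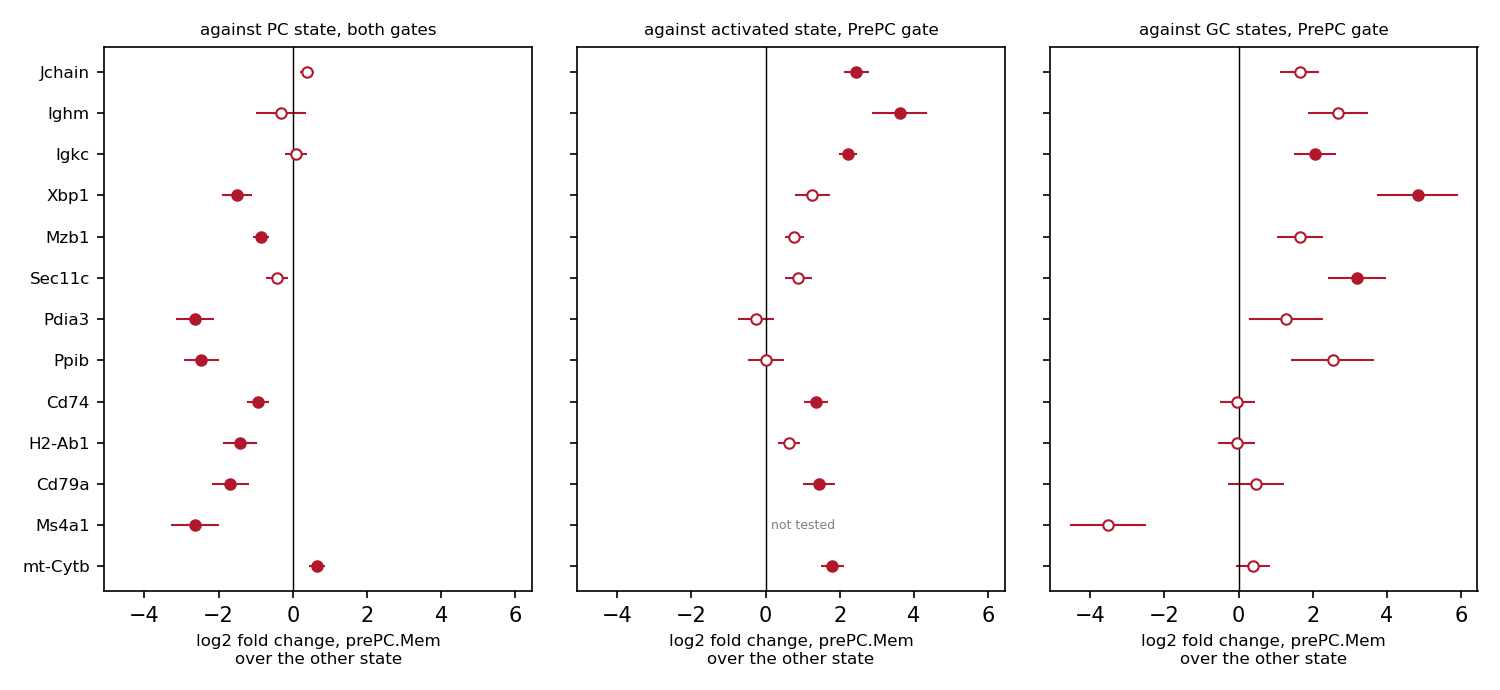
Log2 fold change of prePC.Mem cells over plasma state, activated state and germinal centre state cells (x axes) for 13 genes (y axis); bars are standard errors, filled points have an edgeR adjusted p under 0.05, and open points do not. Xbp1 is lower than in plasma state cells (−1.50) and higher than in germinal centre state cells (4.83), and Ighm is higher than in activated cells (3.61).

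Compared with each other, the prePC.Mem cells of the PC gate (8 pools, 23 cells) and of the PrePC gate (7 pools, 17 cells) gave 0 genes past an adjusted p of 0.05 of 110 tested (0%), with 15 at an unadjusted p under 0.05 (edgeR), and DESeq2 called 3 higher and 10 lower genes in the PC gate. Of the genes named by rule, H2-Aa was at −5.46 ± 1.39 in the PC gate relative to the PrePC gate (edgeR adjusted p = 0.053), Iglc1 at 2.94 ± 0.93 and Jchain at 1.97 ± 0.58 (both adjusted p = 0.081). Slpi, a secreted protease inhibitor abundant in plasma cells, was at 2.60 ± 1.03 (adjusted p = 0.24), with 47.1 counts per cell in the PC gate and 9.14 in the PrePC gate. Ighm was at −1.31 ± 1.15 (adjusted p = 0.63) and Cd74 at −1.32 ± 0.65 (adjusted p = 0.31).

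Surface fluorescence is measured apart from the gene counts, while receptor mutations are read from the assembled receptor transcripts. Both were compared with those of plasma state cells of the same gate and plate. Of 24 tests (10 fluorescence values and 2 mutation counts in 2 gates), 0 passed after Benjamini-Hochberg adjustment and 4 had an unadjusted exact permutation p under 0.05. CD138 differed by 0.04 ± 0.39 units in the PC gate (SD over 10 plates, exact permutation p = 0.754, adjusted 0.822) and by −0.14 ± 0.50 in the PrePC gate (13 plates, exact permutation p = 0.333, adjusted 0.659), on a scale of inverse hyperbolic sines. The gates were themselves set by surface fluorescence. Mean CD138 in prePC.Mem and plasma state cells was 4.07 and 4.03 in the PC gate and 1.65 and 1.79 in the PrePC gate. Comparison within a gate therefore limits how far CD138 can differ. The live/dead dye was lower by −0.48 ± 0.69 in the PC gate, on 9 of 10 plates (exact permutation p = 0.0059, adjusted 0.129). In the PrePC gate it was lower by −0.35 ± 0.54, on 10 of 13 plates (exact permutation p = 0.031, adjusted 0.189). PSGL1, an adhesion molecule, differed by −0.48 ± 0.72 in the PrePC gate (exact permutation p = 0.030, adjusted 0.189).

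Cell cycle calls of the authors placed 23 of 30 PC gate prePC.Mem cells in G1 (76.7%), 0 in S and 7 in G2M. In the PrePC gate they placed 11 of 25 in G1 (44.0%), 8 in S and 6 in G2M. Plasma state cells were in G1 in 295 of 351 (84.0%) and 67 of 128 (52.3%). Mki67, a marker of dividing cells, had a count in 3 of 24 and 5 of 21 prePC.Mem cells. Such calls rest on few genes in cells with a median of 242 or 689 detected genes at 5000 counts.

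Heavy chains were assembled in 43 of 58 prePC.Mem cells, 24 of 30 in the PC gate (80%) and 17 of 25 in the PrePC gate (68.0%), against 475 of 480 plasma state cells (99.0%). Light chains were assembled in 55 of 58. The 43 heavy chains carried a median of 0 mutated bases (0 to 14), and 28 of them had none (65.1%, exact 95% interval 49.1% to 79.0%). Plasma state cells had none in 263 of 475 (55.4%), and germinal centre state cells of the PrePC gate in 13 of 55 (23.6%). Within plates, heavy chain mutations differed from plasma state cells by −0.23 ± 1.43 in the PC gate (9 plates, exact permutation p = 0.633) and by −0.49 ± 2.93 in the PrePC gate (10 plates, exact permutation p = 0.631). Light chain mutations differed by −0.43 ± 0.64 (10 plates, exact permutation p = 0.0625, adjusted 0.3) and −0.79 ± 0.83 (12 plates, exact permutation p = 0.0107, adjusted 0.129).

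The most frequent V segment was IGHV1-72, the segment that dominates the response of this strain to the NP hapten, with 6 of 43 cells, 5 of them in the PC gate. IGHV1-81 had 4, and IGHV6-3 and IGHV11-2 had 3 each. By the authors' clone numbers 14 of the 43 cells belonged to a clone with another cell of the data, and all 14 had a plasma state cell in it. The split by gate was uneven: 13 of 24 PC gate cells (54.2%, exact 95% interval 32.8% to 74.4%) shared a clone, 7 of them with a germinal centre state cell, against 1 of 17 in the PrePC gate (5.88%, 0.149% to 28.7%) and 0 of 17 with a germinal centre state cell, which allows up to 17.6%. In plasma state cells the shares were 212 of 348 (60.9%) in the PC gate and 48 of 126 (38.1%) in the PrePC gate. Cells of a plate and clone are not independent, so these shares carry no test. Of the clones with a germinal centre state cell, clones 16, 93 and 542 held cells of both sampleIDs. In clones 136 and 542 no other cell had the junction of the prePC.Mem cell. Common descent within a clone number was not tested.

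The junctions below are those of prePC.Mem cells whose clone number was shared with other cells. Each runs 5′ to 3′ from the conserved cysteine codon to the tryptophan codon of the J segment, as read from the authors' assembled heavy chains, and the capitals mark the bases between these codons, which form the third complementarity-determining region.
IGHV1-72 and IGHJ4, clone 47: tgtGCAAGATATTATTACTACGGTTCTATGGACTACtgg
IGHV1-72 and IGHJ2, clone 435: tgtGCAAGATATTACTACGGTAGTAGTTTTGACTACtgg
IGHV1-72 and IGHJ2, clone 136: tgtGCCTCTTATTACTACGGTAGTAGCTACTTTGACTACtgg
IGHV1-22 and IGHJ3, clone 542: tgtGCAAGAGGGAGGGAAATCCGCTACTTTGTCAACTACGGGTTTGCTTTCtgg
IGHV1-58 and IGHJ4, clone 16: tgtGCAAGACAGGGGGCTATGGACTACtgg
IGHV11-2 and IGHJ1, clone 93 in C57BL/6M: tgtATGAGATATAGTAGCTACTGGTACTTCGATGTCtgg
IGHV11-2 and IGHJ1, clone 93 in C57BL/6F: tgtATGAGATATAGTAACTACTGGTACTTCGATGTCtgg
IGHV11-1 and IGHJ1, clone 118: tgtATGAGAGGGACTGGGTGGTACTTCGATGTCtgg

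Clone 47 joined a prePC.Mem cell with 5 mutated bases to 6 plasma state and 3 germinal centre state cells of C57BL/6M with 1 to 7, and 8 of these 9 carried the same junction. Clone 542 held the most mutated of the shared prePC.Mem heavy chains, with 8 mutated bases, beside 4 plasma state cells and 1 germinal centre state cell with 1 to 7. Its prePC.Mem cell was from C57BL/6F and the other 5 cells from C57BL/6M. Of these 5 cells 0 had its junction, and they differed from it at up to 5 bases. Clone 136 set its prePC.Mem cell (1 mutated base) with 4 plasma state and 2 germinal centre state cells, but 0 of them had its junction and they differed from it at up to 8 bases. Clone 435 had 9 cells, 5 of them with the printed junction apart from the prePC.Mem cell.

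Clone 16 held 2 prePC.Mem cells without mutations and with the same junction. Clone 93 had 19 cells with 0 mutations, 2 of them prePC.Mem, and the printed junctions are those of its prePC.Mem cells. IGHV11 segments are known from B-1 cells that bind phosphatidylcholine, and 4 of 43 prePC.Mem (9.30%) and 22 of 475 plasma state cells (4.63%) used one. Clone 118, the shared clone of the PrePC gate, paired a prePC.Mem cell with 1 plasma state cell. Of the 12 shared clones with a prePC.Mem cell 6 held cells of both sampleIDs, clones 16, 93, 435 and 542 among them, against 25 of 134 clones of at least 2 cells in the whole data. These shares were not matched for clone size, which reached 19 cells among the 12, and were not tested.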

How the data were processed

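Single cells were index-sorted into wells and read by FB5P-seq, a 5′ method with molecular tags of 5 bases. Alignment and counting tools named in the submitters' processing notes are STAR 2.5.3a and HTSeq 0.9.1, with mm10 as the genome; the filter on cells is not given in the sources used here. The deposited matrix holds molecule counts per gene and cell, with 1024 as the highest value; 3 prePC.Mem cells had a gene there. The authors' deposited table of cells gives the spike-in share as a fraction, and fluorescence as a score, the inverse hyperbolic sine of the signal over 10 or 100. It also holds the authors' memory, plasma cell and activation scores, whose gene sets are not stated, phases, mutated bases and assembled receptors. The origin of the annotation is not stated.

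Each cell was thinned to 5000 counts, cells were summed per plate, gate and state (at least 2 cells), and pools were tested with edgeR 4.0.16 in R 4.3.3 (quasi-likelihood test, TMM, filterByExpr, Benjamini-Hochberg adjusted p under 0.05 over all genes tested). The plate was a block where at least 6 plates held both states, otherwise the sampleID was a covariate; the added comparison of cells under 500 genes was fitted both ways. DESeq2 1.42.0 was an alternative. Plate means were compared by exact sign-flip permutation written with numpy 2.4.6, and exact intervals were computed with scipy 1.17.1. The plates could not be matched to single GEO samples, so plate and sampleID come from the table of cells. No doublet caller was run. The scripts were tested on simulated data.

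Named genes are the 4 markers, the 8 called genes with the largest fold in each direction, up to 4 members with the smallest p of each gene list and the 15 most abundant genes, plus members named within a counted list. Slpi is among the most abundant genes; Xbp1 and Sdc1 against plasma state cells, and the genes given only as shares of cells, were chosen after their values were seen. The members and lists were chosen with earlier results of these data known.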

Additional observations from a re-analysis of the deposited data

Results flagged for a closer look

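The difference between prePC.Mem and plasma state cells itself differed between the gates for 239 of 861 genes (edgeR interaction test, adjusted p under 0.05), 232 of them less negative or higher in the PrePC gate. These included 6 of 8 MHC class II genes, and 7 of 30 folding and secretion and 6 of 21 ribosomal protein genes, which is close to the share over all genes. Fitted alone, the PC gate had a median log2 change of −4.64 over 1619 genes and the PrePC gate −0.96 over 841. The values below include that shift over all genes. On the log2 scale, the PrePC gate change minus the PC gate change was 1.40 for Cd74, 2.97 for H2-Eb1 and 5.82 for H2-DMa. It was 2.52 for Ppib, 3.29 for Pdia3, 4.07 for Pdia4, 6.23 for P4hb and 5.34 for Rabac1. For Rpl4, Rplp0 and Ly6a it was 3.07, 3.18 and 3.84. Jchain (−0.88) and Ighg2c (−5.07) went the other way. Fitted values of genes with few counts in 1 gate depend on the prior count. The prePC.Mem cells of the PC gate were also those with the fewest genes, and the part of this in the interaction was not tested.

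Among 12 groups of plates with at least 2 cells each, 3 had a plate far from the others. In these 3 groups most plates had no count of the gene, so a plate with counts stands out almost by itself. A chance rate of about 1 in 20 does not apply to such groups, and 3 of 12 was not read as an excess. Plate 4 averaged 8.88 Apoe counts and 7 Prg2 counts per prePC.Mem cell of the PC gate, and plate 2 averaged 42 Prg2 counts in the PrePC gate. Plates with 1 cell, which these groups leave out, reached similar or higher values: 57 Apoe counts on plate 9 in the PC gate, and 30 and 35 Prg2 counts on plates 13 and 20 in the PrePC gate.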

How the results depend on the processing

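Against plasma state cells (537 genes called), 141 were called at 2000 counts per cell, 977 at 10000, 4063 without thinning, 2960 without the filter on low counts, 287 in C57BL/6M alone, 340 with library size alone, 1322 in the PC gate alone, 4 in the PrePC gate alone and 0 among cells under 500 genes, with the sampleID or with the plate in the model. Against activated cells (16), the counts were 5 at 2000 counts, 131 without thinning (9 higher, 122 lower), 25 with DESeq2 (13 higher, 12 lower), 93 without the filter (44 higher, 49 lower), 0 in C57BL/6F, 10 in C57BL/6M and 25 without plate 4; pools of at least 1 cell gave 6 higher and 10 lower. Against germinal centre states (10), they were 4 at 2000 and 4 at 10000 counts, 2 with a second draw, 56 with DESeq2, 0 without the filter, 41 with pools of at least 1 cell, 47 in C57BL/6F and 16 in C57BL/6M. Between gates (0), they were 3 at 2000 counts, 2 with a second draw, 11 without thinning, 13 with DESeq2, 4 without the filter, 2 with pools of at least 1 cell, 2 without immunoglobulin genes, 8 in C57BL/6M, 4 with library size alone (which moved the median by 0.34) and 3 without plate 4. The differences in genes per cell in C57BL/6F alone were −342.9 and −304.2. The causes of these changes were not tested.

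Against plasma state cells, changes of sign were Apoe at 0.29 (2000 counts), 0.13 (pools of at least 1 cell) and 0.34 (C57BL/6F); Jchain at −0.091 (no filter) and −0.018 (PrePC gate); Ighm at 0.54 (10000 counts), 0.46 (pools of at least 1 cell), 0.062 (C57BL/6F), 0.36 (PrePC gate) and 0.43 (sampleID in place of the plate). Ighg2b was at 0.69 in C57BL/6F and 0.79 among cells under 500 genes with the plate in the model, and mt-Cytb at −0.037 in the PC gate. Between gates, Ighm was at 0.013 at 10000 counts and H2-Aa at 0.095 in C57BL/6F. CD138 in the PC gate was at −0.309 in C57BL/6F and −0.0022 without plate 13, and in the PrePC gate at 0.0188 in C57BL/6F. Heavy chain mutations in the PC gate were at 0.0123 (at least 2 cells), 0.5 (medians) and 0.23 (C57BL/6M), and in the PrePC gate at 0.5 (medians) and 0.389 (C57BL/6F); light chain mutations in the PC gate were at 0.05 (medians). The cause was not tested. Counted over named genes and settings, direction and side of the threshold were kept 362 times against plasma state, 130 against activated, 89 against germinal centre states and 52 between gates, and a call was lost with its direction kept 103, 38, 32 and 0 times. The settings without plate 4 or 13, cells under 500 genes and library size alone were chosen after seeing the data. Leaving out each plate in turn was not run, since no state had 2 to 5 pools. No paired analysis was possible because the labels' replicate numbers only follow accession order and tie no plate of C57BL/6F to one of C57BL/6M; states were compared within plates, as given with each result. With 48 cells at 5000 counts, genes of low level were not tested.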
